A study of Mus musculus with 16 samples.

Results

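The genes described here encode the proteins of the cytosolic ribosome. They were taken by name, as every probe whose platform symbol begins with Rpl or Rps and a digit or is Rplp0, Rplp1, Rplp2 or Rpsa, without pseudogenes and without the Rps6k kinases. That gave 92 probes for 74 genes among 24607 probes and 15161 named genes on the array. Rps19bp1, a nucleolar partner of Rps19, fits the naming rule but is no ribosomal protein, and without it 91 probes for 73 genes remained, 61 probes for 47 genes of the large subunit and 30 probes for 26 genes of the small subunit. Peritoneal macrophage RNA was profiled on 16 arrays of the Illumina Mouse Ref-8 v1.1 type. By their labels, 6 animals carried the SR-uPA+/0 transgene, named for scavenger receptor sequences and made to overexpress urokinase plasminogen activator (uPA, gene Plau) in macrophages, and 6 were nontransgenic. All animals of both genotypes were female, lacked apolipoprotein E (Apoe-/-), ate a Western diet from 5 weeks of age for 10 weeks and were 15 weeks old. Thioglycollate was injected to recruit macrophages, and the peritoneal cells harvested at day 5 were allowed to adhere for 2 h. The other 4 arrays were 2 repeat hybridisations of a pool of the transgenic RNA and 2 of a pool of the nontransgenic RNA, so they are no further animals. The design names 2 chips but not the chip of each array, so chip and genotype cannot be told apart.

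A ribosome joins a small subunit, which holds the mRNA and reads its codons, to a large subunit, which links the amino acids and lets the new chain out through an exit tunnel. Its proteins are made in near equal numbers and are among the most abundant transcripts of growing and immune cells. Most of their mRNAs begin with a C and a run of pyrimidines, the terminal oligopyrimidine (TOP) tract, through which the kinase mTOR and the protein Larp1 adjust their translation together.

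Start-site sequences of the members were read from the RefSeq promoter table of assembly GRCm38.p6, which held an entry for 59 of the 73 genes. They are shown for Rpl13, the member whose signal differed most clearly between the genotypes, and for 4 members chosen as examples after their sequences and values were seen, which did not pass the test. Each stretch starts 25 bases before the annotated start and runs 5′ to 3′ on the gene's own strand, and capitals mark the longest pyrimidine run that begins with a C. Rpl13 lies at chr8:123102325-123102364 on the plus strand, Rps18 at chr17:33955651-33955690 on the minus strand, Rpl28 at chr7:4792940-4792979 on the plus strand, Rps6 at chr4:86857353-86857392 on the minus strand and Rps10 at chr17:27635230-27635269 on the minus strand.
Rpl13: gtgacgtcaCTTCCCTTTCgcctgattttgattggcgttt
Rps18: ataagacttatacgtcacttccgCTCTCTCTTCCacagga
Rpl28: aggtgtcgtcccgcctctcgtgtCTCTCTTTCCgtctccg
Rps6: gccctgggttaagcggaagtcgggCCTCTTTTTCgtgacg
Rps10: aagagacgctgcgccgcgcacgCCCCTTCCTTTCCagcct
In Rps18, Rpl28, Rps6 and Rps10 the run covers the annotated start, and in Rpl13 it lies wholly before it. A start base of C with 4 or more further pyrimidines (C or T) directly after it, read on the gene's strand, was found in 13 of the 59 member genes (22.0%), against 3.01% of 27025 genes in the table. The 4 examples all start this way and the Rpl13 stretch does not. Most of the 59 members had no such start either, so this does not set Rpl13 apart from the family. With the run allowed anywhere within 25 bases of the start, as a C and at least 5 further pyrimidines, 39 members held one (66.1%), against 38.5% of all genes. CCGGAAG, a motif of the ETS family of factors, stood on either strand in the 300 bases around the start of 25 members (42.4%), against 9.93% of all genes. These matches describe the letters in the windows and say nothing of translation or of binding in these cells.

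The members were bright as a family. Of the 100 brightest probes on the array 24 were ribosomal protein probes, and the mean signals of tested members ran between 31.2 and 57148 deposited intensity units. Testing required a signal over a noise limit of 56.8 to 56.9 units in 3 or more of the 12 animals, which 80 member probes for 67 genes and 10534 probes in all met. Of the 12 probes left out, 10 exceeded the limit on no animal array. Rpl14, Rpl36al, Rpl39l, Rpl4, Rplp2, Rps19 and Rpsa had no tested probe, which describes these probes, since most of these genes encode parts that every ribosome holds. Rpl4 lines the exit tunnel, Rplp2 is a stalk protein, and Rps19 and Rpsa sit in the small subunit. Just outside the limit lay Rpl14, above noise on 1 transgenic and 1 nontransgenic array, and a probe of Rpl4, above noise on 0 transgenic arrays and 1 nontransgenic array. Just inside were a probe of Rpl38 (1 transgenic and 2 nontransgenic arrays) and a probe of Rplp0 (2 transgenic arrays and 1 nontransgenic array). The other tested members above noise on only part of the arrays were 2 probes of Rpl21, 1 of Rpl27a and that of Rpl3l, and 74 tested members were above noise on all 12 animal arrays.

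Facts of the arrays as a whole bear on what follows. Between 9543 and 9551 probes exceeded the noise limit per array, a near equality that the authors' normalization gives. The Plau probe did not separate the labels (log2 difference -0.10; limma adjusted p = 0.967), and directions are given by label. The macrophage markers Adgre1, Mertk and Cd14 were detected, Msr1 was above noise on 0 arrays, and none of 15 tested macrophage probes passed the test, with summed signals of 290169 to 306860 units in transgenic and 278352 to 327643 units in nontransgenic animals. Neutrophil markers rose in transgenic animals at 4 of 11 tested probes (Retnlg, Pglyrp1, S100a9 and S100a8), and their summed signal was 12892 to 46428 units in transgenic and 5090 to 18801 units in nontransgenic animals. Of that list Mpo, Elane, Ngp, Mmp8 and Cxcr2 were not above the noise limit often enough to be tested. Of the fibroblast and mesothelial list, 6 of 15 tested probes were called lower (Col1a1, Col3a1, both tested probes of Col6a1, Serping1 and a probe of Dcn). Its tested mesothelial markers did not pass. Wt1 had -0.66 (limma adjusted p = 0.127), Krt8 -0.26, Upk3b -0.07, Krt18 -0.03, Krt7 -0.01 and Msln 0.10. The summed signal of the whole list was 1702 to 7747 units in transgenic and 10310 to 18774 units in nontransgenic animals, which do not overlap. Of that list Lum, Krt19, Thy1 and Col1a2 were not tested for the same reason. The probes of the B cell (5), T cell (1), resident macrophage (6) and eosinophil and mast cell (3) lists that were tested did not pass. Of the resident macrophage probes 5 were negative and 1 positive, with a median of -0.41. The largest were Cxcl13 with -1.28 (limma adjusted p = 0.384), Gata6 with -0.87 (0.296) and Vsig4 with -0.57 (0.326). Of the B cell probes 4 were positive and 1 negative, with 0.76 for a probe of Cd79b (limma adjusted p = 0.205). In such bulk samples fewer cells of a type and less RNA per cell cannot be told apart.

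The first question was whether macrophages of transgenic animals hold more or less ribosomal protein mRNA than those of nontransgenic animals. As a family they did not separate. Of 80 tested member probes 0 rose and 1, that of Rpl13, fell, and 79 did not pass (limma with Benjamini-Hochberg adjustment over all 10534 probes, threshold 0.05). That is 1.25% of members, beside 0.731% of all tested probes called in either direction and 0.627% called lower, so the share of members called was near that of the array. At an unadjusted p under 0.05 there were 3 members (3.75%), beside 8.53% of all tested probes. The median log2 difference of the members, transgenic minus nontransgenic, was 0.02 (quartiles -0.07 and 0.10), and that of all tested probes was 0.01 (quartiles -0.11 and 0.12).

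Individual members stayed close to that median. Of the tested members 47 had a positive and 33 a negative difference, and 71 of 80 lay within 0.2 on the log2 scale (88.8%), beside 75.8% of all tested probes. Most members were brighter than most tested probes, and these shares were not matched for brightness. The large subunit had 52 tested probes with a median of 0.03, 31 positive and 21 negative, between -0.50 and 0.44. The small subunit had 27 tested probes with a median of 0.02, 16 positive and 11 negative, between -0.25 and 0.16, and 0 were called. Fau, whose product is a small subunit protein fused to a ubiquitin-like protein, had a log2 difference of 0.10 (limma adjusted p = 0.827). The probe for 18S rRNA, the RNA of the small subunit, had 0.02 (limma adjusted p = 0.989), with 4554 to 12884 units in transgenic and 4892 to 11634 units in nontransgenic animals. These values are relative to each array's own distribution, so a shift of all mRNA per cell would not be seen.

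**Figure D1:**
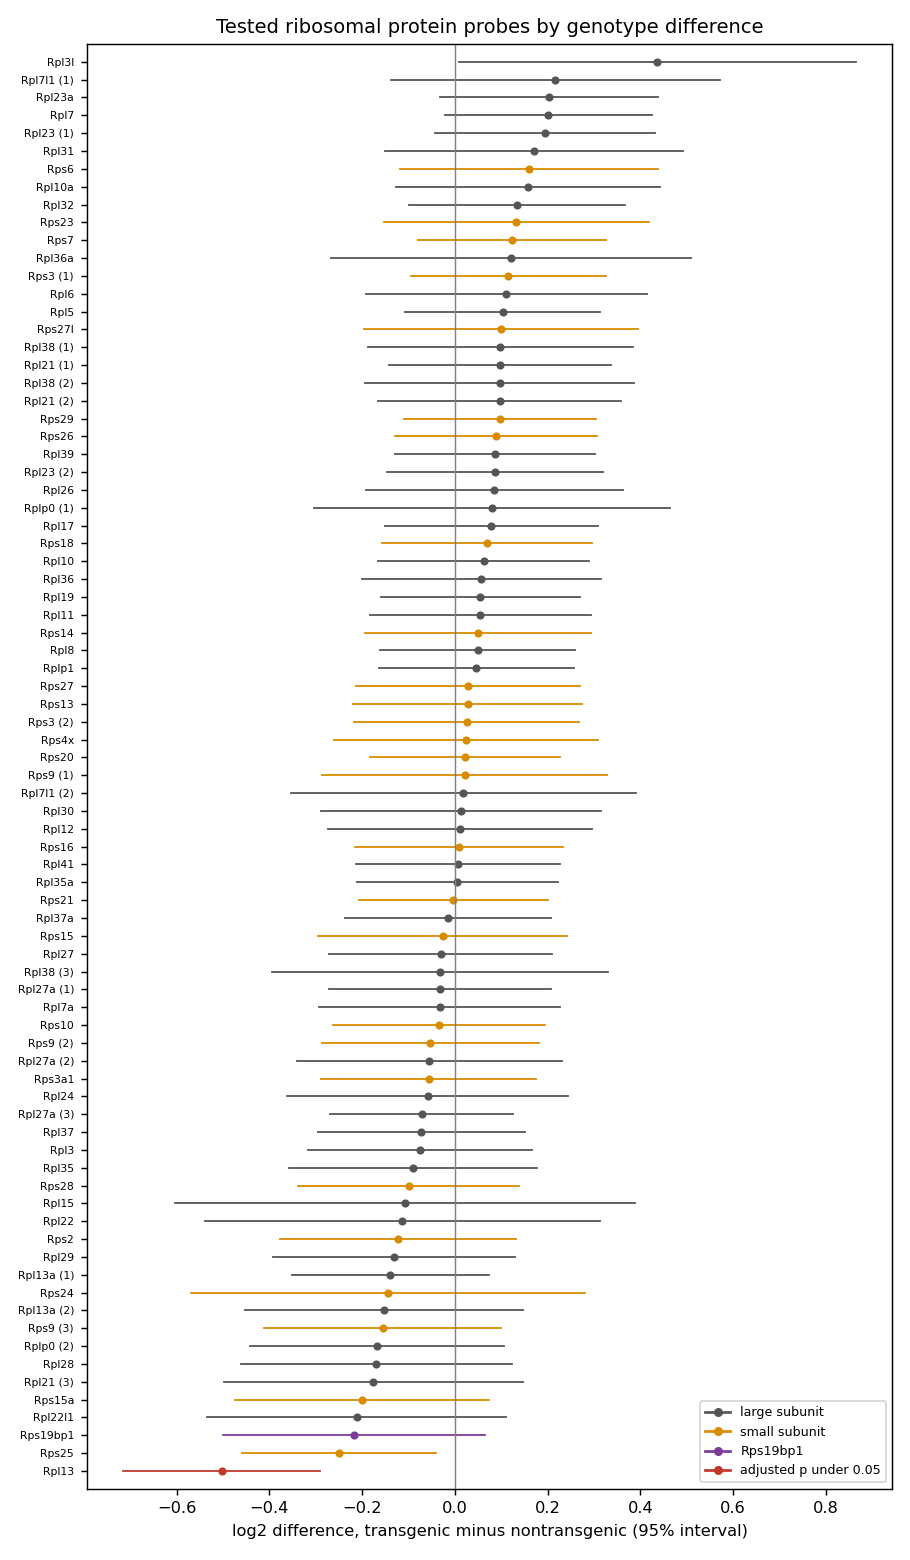
Log2 difference (transgenic minus nontransgenic, normalized intensity) of each of the 80 tested member probes, highest at the top, with 95% intervals from limma (n = 6 animals per genotype). Colours give the subunit and numbers in brackets the probes of a gene. Only Rpl13, at the bottom with -0.50, passed the test, and most points lie within 0.2 of zero.

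Rpl13, a protein of the large subunit with 1 probe on the array, was the exception. Its deposited signal was 25470, 27944, 23549, 21996, 27641 and 27612 units in the 6 transgenic animals and 37417, 36394, 33200, 35177, 37617 and 34766 units in the 6 nontransgenic animals. Every transgenic animal lay below every nontransgenic animal, with a clear gap between the groups. The means were 25702 ± 2484 units in transgenic and 35762 ± 1702 units in nontransgenic animals (SD, n = 6 each).

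On the normalized log2 scale Rpl13 fell by 0.50 in transgenic animals (SE 0.10, 95% interval -0.71 to -0.29), which is 1.42-fold lower (limma adjusted p = 0.0230). An exact two-sided permutation test over the 12 animals gave p = 0.00216, the smallest that 924 assignments allow. It was the only member whose genotype values did not overlap, 1 of 80, beside 1.07% of all tested probes, 0.731% with transgenic lower. By p, Rpl13 held rank 53 of the 10534 tested probes. The difference kept its sign in every refit, but its call depended on which animals were included. It held in 6 of the 12 fits that left out 1 animal. Without transgenic 3 or 4 or nontransgenic 1, 2, 5 or 6, the limma adjusted p was 0.0508 to 0.0675. The fibroblast and neutrophil markers above also differed by genotype. With the mean of each of these lists as terms in the fit, chosen after seeing the data, the Rpl13 difference was -0.30 (SE 0.24, limma adjusted p = 0.833). The fibroblast mean did not overlap between the genotypes, at 7.56 to 8.53 in transgenic and 8.84 to 9.46 in nontransgenic animals. That fit therefore hardly separates marker level from genotype, and no conclusion is drawn from it.

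**Figure D2:**
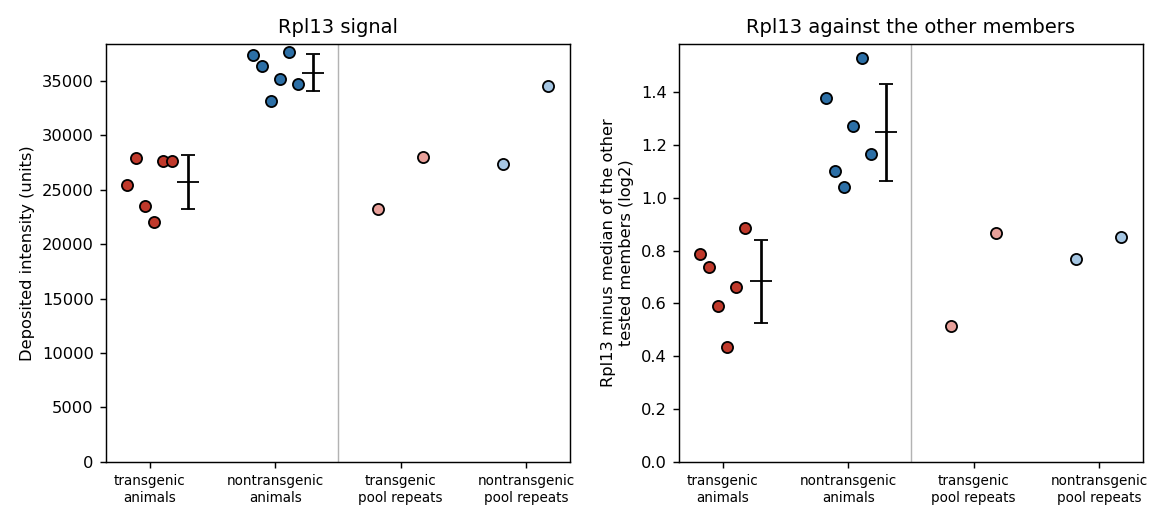
Left, deposited intensity of Rpl13 on each array. Right, normalized log2 value of Rpl13 minus the median of the other 79 tested member probes on the same array. Points are animals (n = 6 per genotype) or repeat hybridisations of a pool, bars are mean and SD over animals, and transgenic animals lie below all nontransgenic animals in both panels while the pool repeats overlap in both.

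Set against the rest of the family on the same array, Rpl13 was again lower in every transgenic animal. Its log2 value minus the median of the other 79 tested members was 0.79, 0.74, 0.59, 0.44, 0.66 and 0.88 in transgenic animals and 1.38, 1.10, 1.04, 1.27, 1.53 and 1.17 in nontransgenic animals. The means were 0.68 ± 0.16 and 1.25 ± 0.18 (SD, n = 6 each) in transgenic and nontransgenic animals, a difference of -0.56, described here without a test. Of the 79 other members, 75 had a 95% interval that excluded Rpl13's point estimate of -0.50. The remaining 4 were Rpl22l1, Rps24, Rpl22 and Rpl15, whose animals spread widely within a genotype. This count leaves out the error of Rpl13 itself (95% interval -0.71 to -0.29), so it does not test Rpl13 against each member.

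The pools, which hold the same RNA, separated Rpl13 less. Its signal was 23271 and 27999 units in the repeats of the transgenic pool and 27353 and 34529 units in those of the nontransgenic pool. The first nontransgenic repeat lay below every nontransgenic animal and below the second transgenic repeat. Averaged over repeats the log2 difference was -0.27, and against the median of the other members the pools read 0.51 and 0.86 (transgenic) and 0.77 and 0.85 (nontransgenic). The repeats of a pool differed for Rpl13 by 0.26 (transgenic) and 0.30 (nontransgenic) on the log2 scale, so the pool difference was about the size of the difference between repeats. Among the members 3 were lower than Rpl13 in the pool comparison, a probe of Rpl13a (-0.77), a probe of Rpl21 (-0.52) and Rps15 (-0.44). The member median was -0.00 in the pools (39 positive, 41 negative).

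The genes next to Rpl13 on chromosome 8 were looked at beside it. Within 8 genes on each side in the RefSeq order, 0 of the tested probes passed. Spg7, the nearest measured gene before it, had 0.11 (limma adjusted p = 0.841), and Chmp1a, the nearest tested gene after it, had -0.38 with a wide error (SE 0.30; limma adjusted p = 0.796). A difference of the size of Rpl13's is therefore not excluded for Chmp1a. The 4 probes of Cdk10, further along, lay between -0.15 and -0.05.

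**Figure D3:**
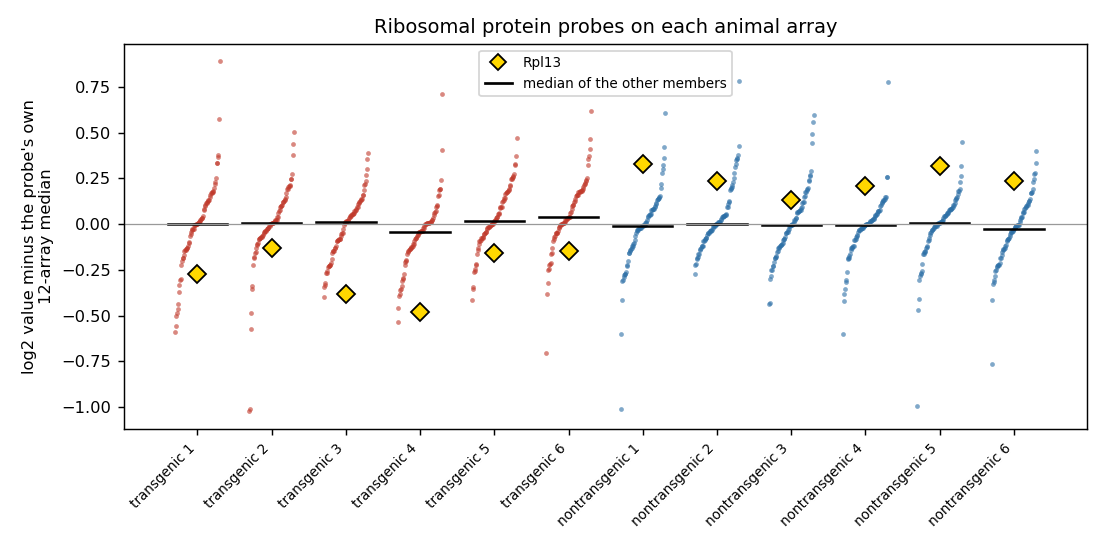
Normalized log2 value of each tested member probe above noise on all 12 animal arrays (74 with Rpl13) minus that probe's median over the 12 animals. Values are sorted within each animal array, with Rpl13 as a diamond and the median of the others as a bar. The 6 tested members above noise on only part of the arrays are left out. The bars lie close to zero on all arrays, while Rpl13 is below its own median in all 6 transgenic animals and above it in all 6 nontransgenic animals.

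Across arrays the members moved up and down together only slightly. The share of the 80 members above their own median over the 12 animals was 35.0% to 60.0% in transgenic animals and 40.0% to 52.5% in nontransgenic animals. The lowest and the highest share were both in transgenic animals, transgenic 4 and transgenic 6, so the groups overlapped fully. Transgenic 1 and 6 correlated least with the other arrays over all tested probes (mean r 0.969 and 0.972, up to 0.979 elsewhere), and the results given above were recomputed without them: Rpl13 then had -0.53 (limma adjusted p = 0.0440).

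Among the large subunit members of the stalk, those that bind 5S rRNA and those at the rim of the exit tunnel, none was called. The stalk recruits elongation factors, and its core protein Rplp0, its tip protein Rplp1 and Rpl12 at its base had 4 tested probes between -0.17 and 0.08. Rplp1 read 48977, 54335 and 60104 units (lowest, median, highest) in transgenic animals and 42455, 52067 and 56803 units in nontransgenic animals, which overlap (log2 difference 0.05; limma adjusted p = 0.934). The brighter probe of Rplp0 had 299, 404 and 446 units in transgenic and 321, 457 and 539 units in nontransgenic animals (-0.17; limma adjusted p = 0.788), and the other, near the noise limit, had 0.08. Rpl5 and Rpl11, which bind 5S rRNA and, outside the ribosome, Mdm2, had 0.10 and 0.05.

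At the rim of the exit tunnel, where chaperones and the signal recognition particle dock, 6 of 7 probes were positive and 1 negative, between -0.09 and 0.20. Rpl23a, the docking site for several of these factors, had 10187, 11204 and 14088 units in transgenic and 9001, 9594 and 11589 units in nontransgenic animals (0.20; limma adjusted p = 0.657), and the groups overlapped. Rpl7 was similar, with 13686, 15356 and 19188 units in transgenic and 12844, 13519 and 14482 units in nontransgenic animals (0.20; limma adjusted p = 0.634). Transgenic 2 gave its highest value.

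Rpl13a, known in human monocytes as part of a complex that silences inflammatory mRNAs and often used as a reference gene, had 2 probes. They differed by -0.14 and -0.15 (limma adjusted p = 0.772 and 0.827). The first read 3192, 3362 and 3977 units in transgenic and 3374, 3790 and 4216 units in nontransgenic animals, and its animals overlapped. In the transgenic pool its repeats read 1550 and 3646 units, and in the nontransgenic pool 4350 and 3916 units, so the pool value of -0.77 came with a difference of 1.18 between repeats of the same RNA.

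In the small subunit, the members that shape mRNA entry and decoding (Rps2, Rps3, Rps9, Rps15 and Rps23) had 8 tested probes, 4 positive and 4 negative, between -0.16 and 0.13. Rps25, needed for initiation at certain internal entry sites, came nearest to the threshold after Rpl13. It had 28903, 31881 and 35026 units in transgenic animals and 32438, 37294 and 40637 units in nontransgenic animals. The groups overlapped, and the log2 difference of -0.25 (SE 0.10) did not pass (limma adjusted p = 0.473; exact permutation p = 0.00649). In the pools its difference was 0.04, of the other sign. Rps6, the substrate of the Rps6k kinases, had 0.16, and Rps7 had 0.12.

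Several members have a paralog that can take their place. Rpl3l, in mouse a form of striated muscle, had the largest positive difference of the family, with 110, 148 and 286 units in transgenic animals and 46.7, 89.5 and 212 units in nontransgenic animals. The groups overlapped (0.44, SE 0.20; limma adjusted p = 0.569), while the pools read 372 and 269 units (transgenic) and 91.5 and 73.0 units (nontransgenic), a log2 difference of 1.21. Its parent gene Rpl3 had -0.08.

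Rpl22l1, whose mRNA Rpl22 represses in mouse cells, had 68.7, 101 and 147 units in transgenic and 79.0, 118 and 215 units in nontransgenic animals (-0.21; limma adjusted p = 0.772), and Rpl22 itself had -0.11. The probes of Rpl7l1, the paralog of Rpl7, had 0.22 (limma adjusted p = 0.791) and 0.02. Rps27l, a target of p53, had 0.10 beside 0.03 for Rps27, and Rpl36a had 0.12 with Rpl36al below noise on all animal arrays. Rpl39 had 0.09, and Rpl39l, a form of male germ cells, was likewise below noise. Rps19bp1 had 268, 428 and 526 units in transgenic and 425, 448 and 623 units in nontransgenic animals (-0.22; limma adjusted p = 0.705). Ribosomal protein genes have many near-identical pseudogenes, and whether a probe also reads these cannot be settled from the files.

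Probes of the same gene were set side by side where more than 1 was tested, which held for 9 genes. In 4 of them, Rpl21, Rpl38, Rplp0 and Rps9, the probes differed in sign. The probes of Rps9 had -0.16, -0.05 and 0.02, those of Rpl38 had 0.10, 0.10 and -0.03, and those of Rpl21 had -0.18, 0.10 and 0.10. None of these probes passed, so the signs describe values around zero.

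**Figure D4:**
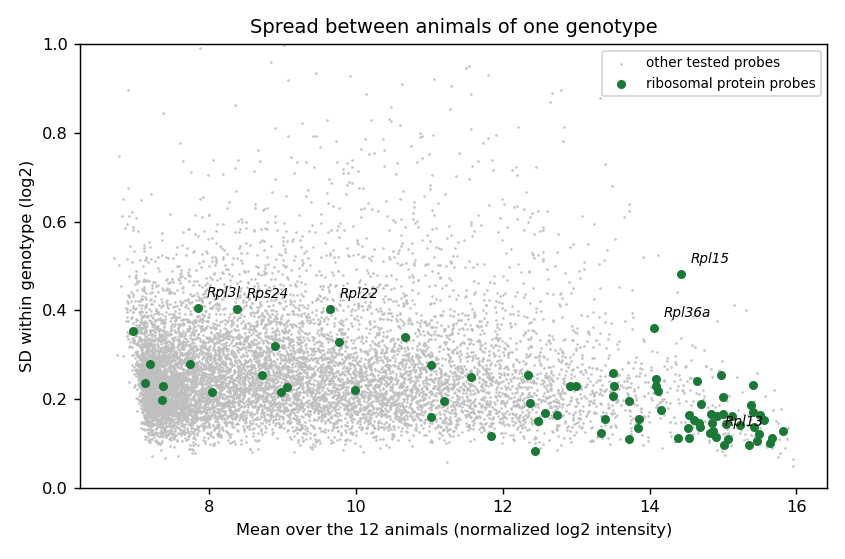
SD of normalized log2 values between animals of a genotype (vertical axis) against the mean over the 12 animals (horizontal axis) for the 80 member probes and the other tested probes, of which 9 lie above the axis limit. Most members stand at the bright end with low spread, Rpl15 is the member with the widest spread at 0.48, and Rpl13 has 0.11.

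The members also varied little between animals of the same genotype. The SD within genotype ran between 0.08 for a probe of Rpl27a and 0.48 for Rpl15 on the log2 scale. For the 58 members with a mean log2 value of at least 12 the median SD was 0.158, beside 0.218 for the 1030 other tested probes above that limit. For the 22 dimmer members it was 0.252, beside 0.245 for 9424 others. Between repeats of a pool, bright members differed by a median of 0.122 and other bright probes by 0.164. The bright members and the other bright probes share only the lower limit and were not matched for brightness above it. Whether brightness accounts for these differences in spread was not tested.

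Rpl15, in the core of the large subunit, had 11666, 22817 and 31027 units in transgenic and 11739, 24699 and 32331 units in nontransgenic animals. The low values came from transgenic 2 and nontransgenic 1, so its spread lay in both genotypes. Rpl3l, Rpl22 and Rps24 followed with SDs of 0.41, 0.40 and 0.40. At the other end, a probe of Rpl27a had 4969, 5229 and 5845 units in transgenic and 5173, 5654 and 5866 units in nontransgenic animals, and Rps7 had 31741, 35297 and 37630 units in transgenic and 28739, 31445 and 35360 units in nontransgenic animals, with an SD of 0.10.

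The other genes of translation did not separate either, with 0 probes called in each list, beside 0.731% of all tested probes. Translation factors and further mRNAs with a TOP tract had 25 tested probes with a median of -0.00, 12 positive and 13 negative. The lowest p-values among them belonged to a probe of Naca, which guards nascent chains at the tunnel exit (-0.49; limma adjusted p = 0.466), and a probe of Pabpc1, which binds poly(A) tails (0.29; limma adjusted p = 0.532). Further probes of both genes lay near zero, at -0.05 for Naca and 0.01 for Pabpc1.

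Ribosome assembly factors had 51 tested probes with a median of 0.01, 27 positive and 24 negative. Nob1, which makes the last cut of 18S rRNA, had -0.36 (limma adjusted p = 0.464), and a probe of Rpf1, which acts in large subunit assembly, had -0.21 (limma adjusted p = 0.663). Regulators of the family had 17 tested probes, 8 positive and 9 negative. A probe of Mlst8, an mTOR partner, had 0.23 (limma adjusted p = 0.546), and its other tested probe had 0.05. Tsc1, which restrains mTOR, had -0.58 (limma adjusted p = 0.554). Its probe was above noise on only 1 transgenic and 4 nontransgenic arrays, with means of 11.1 and 55.1 units. The ribosomal proteins of mitochondria had 85 tested probes with a median of 0.01, 43 positive and 42 negative, with 0.41 for a probe of Mrpl37 (limma adjusted p = 0.168) and 0.45 for Mrps6 (limma adjusted p = 0.352).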

How the data were processed

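The authors deposited linear intensities per probe. BeadStudio is the software that the submitters' processing notes name, without a version. Their columns run below 0 and share nearly the same distribution, so a background had been subtracted and the arrays normalized before deposit, by steps that the sources used here do not state. A further 32 columns without normalization carry only running numbers and were not used.

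The 4 control probes were left out. The noise limit was 1.64 times the root mean square of an array's negative values. The planned use of detection p-values was not possible with these columns. Intensities passed through limma's normexp step (saddle, offset 16), which in effect added 96.8 to 97.1, then quantile normalization over the 12 animals and log2, with the pools mapped to the same distribution. Differences of dim probes are understated on this scale. Genotypes were compared with limma 3.58.1 under R 4.3.3 (lmFit, eBayes, two-sided, Benjamini-Hochberg over all tested probes). The animals of a genotype are separate mice per the labels, and pools entered no test. The number of arrays limits the precision.

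Members, lists and named genes were chosen with earlier results of these data known. Named were Rpl13, Rpl13a, the stalk members and Rpsa, called or non-overlapping members, the 4 largest differences in each direction, genes whose probes differ in sign, the 4 largest and 2 smallest SDs, paralogs with their parents, and 2 members of each translation list. Rps6, Rps7, Rpl5 and Rpl11 illustrate roles, and the members of the pool comparison and the sequence examples were chosen after their values were seen. A gene symbol was available for 19851 probes and missing for 4756. Alternatives, including array weights (statmod 1.5.0), are given in the closing section, and the procedure was tested on simulated data.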

Additional observations from a re-analysis of the deposited data

Results flagged for a closer look

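Among 66 checks of named members within a genotype, 5 found an animal far from the other 5. Chance gives about 1 in 20 for unselected values. Some members, Rpl15 and Rps24 among them, were named for their wide spread, so the count cannot be set against that rate. Rpl7l1 (probe scl066229.1_118-S) read 9.75 on the log2 scale in transgenic 2, against 10.76 to 10.95 in the other transgenic animals. Rpl15 read 13.55 in nontransgenic 1, against 14.43 to 14.94 in the other nontransgenic animals. Rps24 read 9.15 in transgenic 1, against 7.93 to 8.28 in the others of that genotype. Rpl13a (probe scl022121.1_118-S) read 11.99 in transgenic 2, against 11.68 to 11.78 in the others. Rpl38 (probe scl067671.4_8-S) read 15.13 in nontransgenic 1, against 15.36 to 15.44 in the others. No result for Rpl13 was among these.

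The pools, which enter no test, gave a signal for Rpl36al that the animals did not. Both repeats of the nontransgenic pool exceeded the noise limit, at 99.4 and 107 units, whereas the 6 nontransgenic animals whose RNA it holds read -27.0 to 33.0 units. The cause was not tested.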

How the results depend on the processing

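Rpl13 kept its call under 6 other scalings, with -0.51 to -0.48 and limma adjusted p of 0.0157 to 0.0317, and the member median stayed between 0.02 and 0.03. It lost the call with no filter (-0.50; adjusted p = 0.0932), in an exact Mann-Whitney test (median difference -0.45; adjusted p = 0.202, the lowest it gave) and with marker means as terms (-0.30), and the members called were then 0. The unadjusted Mann-Whitney p of Rpl13 was 0.00216, the smallest that 924 assignments allow, so that test could give Rpl13 no lower value. The fit with marker terms hardly separates marker level from genotype, since the fibroblast mean did not overlap between the genotypes. Leaving out each animal gave -0.53 to -0.46 for Rpl13 and 0 to 1 members called. Of all probes 77 were called, against 42 with no filter, 33 with a filter on all 12 arrays, 0 by Mann-Whitney (784 at an unadjusted p under 0.05), 1 with marker terms, and 42 to 90 without an animal (42 without nontransgenic 2, 45 without transgenic 4). The cause of these changes was not tested, except that no filter adjusts over more probes and that the Mann-Whitney p has this lower limit. The median over members was between 0.00 and 0.03 without an animal.

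Named members that did not pass changed sign as follows. Leaving out an animal gave -0.0797 to 0.0819 for Rps9 (scl076846.5_166-S), -0.148 to 0.0737 for Rpl38 (scl40751.1_9-S), -0.294 to 0.0604 for Rpl15, -0.0196 to 0.0865 for Rps27, -0.0361 to 0.204 for Rpl7l1 (scl066229.1_118-S), -0.0304 to 0.192 for Rplp0 (scl27355.8.1_168-S), -0.243 to 0.00658 for Rpl22 and -0.0558 to 0.213 for Rpl36a. Without transgenic 1 and 6 values were -0.0165 for Rpl21 (scl019933.5_3-S), 0.0368 for Rpl3, -0.0106 for Rps27, -0.131 for Rps9 and -0.0687 for Rpl7l1. Array weights gave -0.0386 for Rps9, and Mann-Whitney median differences were -0.0698 for Rpl36a and -0.0422 for Rps27. The other 731 of 763 values kept sign and side.

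No paired analysis was possible because the labels give the animals no replicate numbers and the pool numbers mark repeat hybridisations. The animal numbers used here follow the order of the samples within a genotype and pair no animals.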
